A study of Caenorhabditis elegans with 12 samples.

Results

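Nuclear hormone receptor genes were defined by name, as every gene with a symbol of *nhr-* and a digit, and the RefSeq gene table of assembly WBcel235 held 283 of them among 46926 genes. Of these, 269 were protein-coding and 14 were pseudogenes. KLF-1 peaks were assigned to 9 of the 269 protein-coding receptor genes and to none of the pseudogenes, since the lists assigned only protein-coding, miRNA and lincRNA genes. The peaks came from ChIP-seq of KLF-1, a Krüppel-like transcription factor, in *Caenorhabditis elegans* collected whole on day 1 of adulthood. The series compared animals of the N2 background, here called WT, with the long-lived mitochondrial mutant isp-1(qm150);ctb-1(qm189), here called *isp-1;ctb-1*, whose mutations affect subunits of respiratory complex III. Both strains carried the transgene Is[pvha-6::klf-1-yfp]. KLF-1 fused to YFP was pulled down with GFP-TRAP, beads that bind GFP and its variants, and each strain gave 3 ChIP libraries with 3 input libraries of DNA taken before the pull-down. All animals were fed HT115 bacteria carrying the L4440 plasmid. In both strains the fusion protein came from 1 integrated transgene line under the *vha-6* promoter, which drives expression in the intestine, so that binding by the native protein or in other tissues was not measured. No pull-down from animals without the tag was among the libraries.

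Nuclear hormone receptors are transcription factors that bind DNA through a zinc finger domain, and in many of them a lipid, sterol or other small molecule binds a second domain and changes their activity. The family is greatly enlarged in *C. elegans*, where most members descend from a relative of the vertebrate receptor HNF4. Receptors with a known role in the worm act in fat metabolism, fasting, molting, detoxification and the response to diet, several of them in the intestine.

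Each list gave, for a peak called in 1 library against its input, the position, the fold enrichment over input and, where a gene had been assigned, that gene and a p-value. The lists held 303 to 665 peaks each, and 142 to 699 assigned genes. An assigned peak lay over its gene or upstream of it, and the gap is the number of bases from the nearer peak end to the gene. The study's methods describe genes within 2000 bp of a peak on either side. The lists depart from this, with upstream gaps of up to 4886 bp at protein-coding genes and no downstream peak. A gene with such a peak is called listed, at whatever fold enrichment and p the peak had. The read depth behind a single peak is unknown, and a gene without a called peak may still carry signal. In the study's reporting summary the ChIP libraries of *isp-1;ctb-1* are all deeper in uniquely mapped reads than those of WT, so that depth cannot be told apart from strain in the results below. On chromosome III, none of 607 peaks in the 6 lists had an assigned gene, although 382 of them lay within 2000 bp of a protein-coding gene. The 8 receptor genes of chromosome III, among them *nhr-6*, *nhr-10* and *nhr-80*, therefore had no chance of being listed.

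The 9 listed receptor genes were *nhr-141*, *nhr-88*, *nhr-244*, *nhr-47*, *nhr-142*, *nhr-21*, *nhr-61*, *nhr-3* and *nhr-48*. They made up 3.35% of the 269 protein-coding receptor genes (95% Wilson interval 1.77% to 6.24%), beside 4.73% of all protein-coding genes listed in at least 1 library (946 of 19983). The intervals here cover counting error only. In WT libraries 3 receptor genes were listed (1.12%, against 1.96% of all protein-coding genes), and in *isp-1;ctb-1* libraries 8 were listed (2.97%, against 4%). The share was below that of all protein-coding genes in 6 of 6 libraries, and the interval of the receptor share held the share of all protein-coding genes in each of the 6. Of the 9 genes 4, *nhr-21*, *nhr-61*, *nhr-3* and *nhr-48*, were listed only in *isp-1;ctb-1* replicate 1, and 5 were left without that library.

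**Figure D1:**
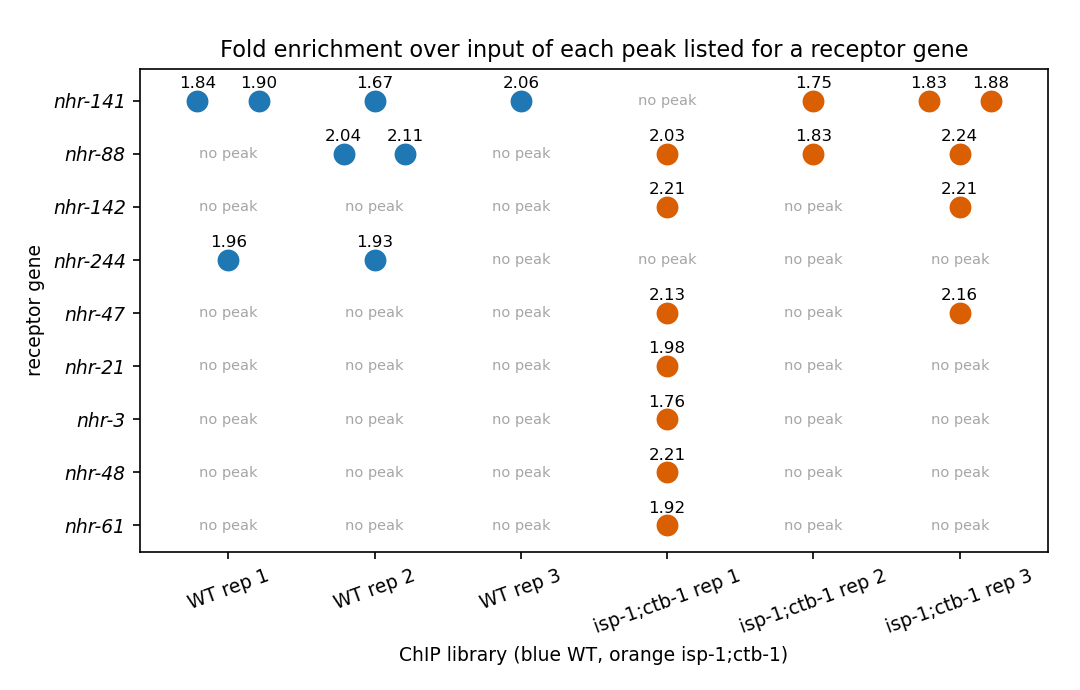
Fold enrichment over input (printed above each point) of every peak assigned to a receptor gene, with genes as rows and the 6 ChIP libraries as columns, WT in blue and isp-1;ctb-1 in orange. A pair of points in a cell stands for a pair of peaks, and only nhr-141 and nhr-88 had points in both strains.

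The receptor gene with the most recurrent peaks was *nhr-141* (F25E5.6), on the plus strand of chromosome V from 7445065 to 7446712 (WBcel235). It was listed in 5 of 6 libraries, with peaks at a pair of upstream sites. The site farther from the gene spanned 7443226 to 7443611 and was called in all 3 WT libraries and in *isp-1;ctb-1* replicate 3. Its fold enrichment was 1.90, 1.67 and 2.06 in WT replicates 1, 2 and 3, and 1.83 in *isp-1;ctb-1* replicate 3. These 4 peaks had 97 bp in common and lay 1454 to 1600 bp before the gene. At the nearer site, from 7444273 to 7444692, peaks were called in WT replicate 1 at 1.84-fold and in *isp-1;ctb-1* replicates 2 and 3 at 1.75-fold and 1.88-fold. Here 191 bp were common to the 3 peaks and the gap was 373 to 549 bp. Both sites were thus called in libraries of both strains, and *isp-1;ctb-1* replicate 1, the list with the most genes, had a peak at neither. The RefSeq table starts *nhr-141* at 7444661, which brings the nearer site to the gene start and places the end of its WT peak inside the gene. The peak of WT replicate 3 ranked 8 of 303 by fold enrichment in its list, the best rank of any receptor peak, while the peak of WT replicate 2 ranked 533 of 665. All 7 peaks were also assigned to F25E5.5, the next gene on the same strand, at 2581 to 3808 bp, and those of the nearer site to F25E5.4 at 4661 to 4837 bp.

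A second receptor gene, *nhr-88* (K08A2.5), was listed in both strains. It lies on the plus strand of chromosome II from 2976639 to 2987023, and was listed in WT replicate 2 and in all 3 *isp-1;ctb-1* libraries. An upstream site from 2973817 to 2974322 had a fold enrichment of 2.04 in WT replicate 2, and of 2.03, 1.83 and 2.24 in *isp-1;ctb-1* replicates 1, 2 and 3. The 4 peaks shared 196 bp and ended 2317 to 2460 bp before the gene. With 2.24, the peak of *isp-1;ctb-1* replicate 3 had the highest fold enrichment of all receptor peaks. It ranked 56 of 565 in its list, the best rank of 12 peaks tied at this value. WT replicate 2 had a further peak over the gene, from 2981223 to 2981655, at 2.11-fold. No other gene was assigned to any peak of *nhr-88*. The RefSeq table starts the gene at 2978416, which lengthens the upstream gap to 4094 to 4237 bp. Since *nhr-88* was listed in WT replicate 2 alone of the WT libraries, *nhr-141* was the only receptor gene left in both strains without that library.

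Both genes together were the 2 receptor genes listed in at least 1 library of both strains, a rule that 1.23% of all protein-coding genes met. At least 2 of 3 libraries of a strain listed 5 receptor genes, *nhr-141*, *nhr-88*, *nhr-244*, *nhr-47* and *nhr-142*, beside 2.30% of all protein-coding genes. That number was 3 when either replicate 1 or replicate 3 of *isp-1;ctb-1* was left out.

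Only WT libraries listed *nhr-244* (ZK1025.6), on the plus strand of chromosome I from 11454780 to 11455450. Peaks were called in WT replicate 1 at 1.96-fold and in WT replicate 2 at 1.93-fold, and the other 4 libraries had none. At 4133 and 4121 bp, these were the largest gaps of any receptor peak in the authors' gene models. Both peaks lay over another gene, ZK1025.2, on the minus strand from 11449856 to 11451972.

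Peaks in *isp-1;ctb-1* replicates 1 and 3, and in no WT library, were found at *nhr-47* and *nhr-142*, both on chromosome V. The peaks at *nhr-47* (C24G6.4, plus strand, 5505253 to 5509956) spanned the start of the gene, with 2.13-fold and 2.16-fold enrichment and 249 bp in common. They were the only receptor peaks that covered a gene start in the authors' gene models. The same peaks lay 225 and 245 bp upstream of *dnj-19*, which encodes a co-chaperone of the DnaJ family and is transcribed in the opposite direction. At *nhr-142* (F44E7.8, minus strand, 5785959 to 5790066) both peaks had a fold enrichment of 2.21 and lay 833 and 801 bp upstream. In RefSeq the gene ends at 5790553, which shortens these gaps to 346 and 314 bp. In the authors' gene models both peaks were closer to F44E7.9, with a gap of 80 bp in replicate 1. They were assigned as well to F44E7.12, to ZC250.2 and to a lincRNA gene. Neither pair of peaks can therefore be ascribed to the receptor gene rather than to its neighbour.

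The 4 genes of *isp-1;ctb-1* replicate 1 alone differed in the place of the peak. At *nhr-48* (chromosome X, 15708195 to 15716444), which belongs with *daf-12* and *nhr-8* to the group related to the vertebrate vitamin D and pregnane X receptors, the peak had 2.21-fold enrichment and lay 432 bp upstream. Its fold enrichment and its p of 0.0756 were the same as those of the *nhr-142* peak in that list, in which 8 peaks had this fold enrichment. The peak of *nhr-21* (chromosome II, 7339229 to 7349124) had 1.98-fold enrichment and lay 1400 bp upstream. At *nhr-3* (chromosome X, 14558504 to 14561425) the peak lay over the gene with 1.76-fold enrichment, rank 442 of 620. The peak of *nhr-61* (chromosome II) had 1.92-fold enrichment and lay over the gene only in the authors' gene model, from 14816136 to 14840005. In the RefSeq table *nhr-61* ends at 14818543, so that the peak was 18211 bp away, and without *nhr-61* 8 receptor genes were listed.

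**Figure D2:**
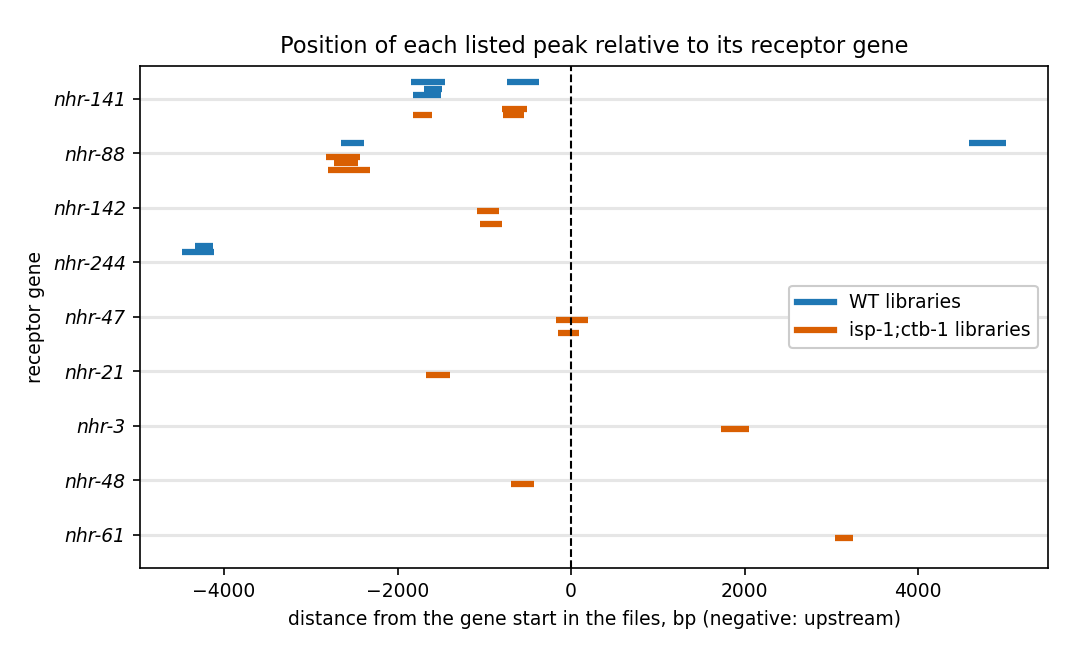
Position of each of the 22 receptor peaks as the distance in bp from the gene start of the authors' gene models (dashed line, negative upstream), 1 bar for each peak at its true length, WT in blue and isp-1;ctb-1 in orange. Most bars lie upstream, those of nhr-47 span the gene start, and those of nhr-88 and nhr-141 from both strains lie above each other.

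Over all 9 genes there were 22 pairs of a peak and a receptor gene, each with its own peak, of which 17 were upstream and 5 over the gene. The 5 were 22.7% of the pairs, beside 639 of 2685 pairs (23.8%) of the other protein-coding genes. Without *isp-1;ctb-1* replicate 1, which held 3 of the 5, the share over the gene was 13.3%. Upstream gaps of receptor peaks ran from 373 to 4133 bp with a median of 1490 bp, where the other protein-coding genes had a median of 2292.5 bp. Of the 17 upstream pairs *nhr-141* alone gave 7, and the median was the gap of its peak in WT replicate 2. The receptor median thus reflects repeated calls at few genes. More than 2000 bp lay between peak and gene in 6 receptor pairs (27.3%), those of *nhr-244* and the upstream site of *nhr-88*, and in 42.1% of the other pairs. Receptor peaks were 204 to 482 bp long, with a median of 270.5 bp against 338 bp. Of the 22 peaks, 13 had been assigned to a further gene, namely every peak of *nhr-141*, *nhr-244*, *nhr-47* and *nhr-142*.

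The fold enrichment of the 22 peaks ran from 1.67 to 2.24 with a median of 1.97, and that of the other protein-coding pairs from 1.23 to 4.57 with a median of 1.89. Within their own lists 18 of 22 receptor peaks were above the median fold enrichment, and 2 were in the top 10%. Of these 2, the *nhr-88* peak of *isp-1;ctb-1* replicate 3 was there only by the best rank of a tie of 12 peaks. In its list 88.1% of peaks had a lower fold enrichment. Those lists include the peaks without an assigned gene, and the same count was not made for the other protein-coding genes. Many of the 22 were calls of the same site in different libraries, so the count does not set receptor peaks apart. All 22 exceeded a fold enrichment of 1.5, as did 87.4% of the other pairs. None had a deposited p under 0.05, the lowest being 0.0756, whereas 565 of the other pairs (21%) did. At a fold enrichment over 1.5 with a p under 0.05, which 1.30% of all protein-coding genes met, no receptor gene was thus listed. The study's reporting summary names these same limits for its ChIP-seq data, without saying whether its p is the deposited one. Every receptor gene called listed here therefore fell short of these limits in the deposited values. The fold enrichment of 12 receptor peaks was also that of other peaks in the same list, up to 19 peaks at a single value.

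Each list also held a long peak over most of the mitochondrial genome, outside the chromosomes of the nucleus. WT replicates 1, 2 and 3 gave this longest mitochondrial peak 2.06-fold, 2.01-fold and 1.89-fold enrichment, and replicates 1, 2 and 3 of *isp-1;ctb-1* gave it 1.33-fold, 1.45-fold and 1.66-fold. Receptor peaks exceeded it in 0 of 3, 2 of 4 and 1 of 1 cases in WT replicates 1, 2 and 3, and in all 14 cases of the *isp-1;ctb-1* libraries. Over all peaks, the median fold enrichment of replicates 1, 2 and 3 was 1.86, 1.86 and 1.67 in WT and 1.94, 1.53 and 1.73 in *isp-1;ctb-1*. The mitochondrial peak was thus above the median of each WT list and below that of each *isp-1;ctb-1* list. The contrast between strains was therefore not particular to receptor peaks. Neither *nhr-244* nor the WT peaks of *nhr-141* in replicates 1 and 2 were above the mitochondrial peak, and the part of that peak in the results was not tested.

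**Figure D3:**
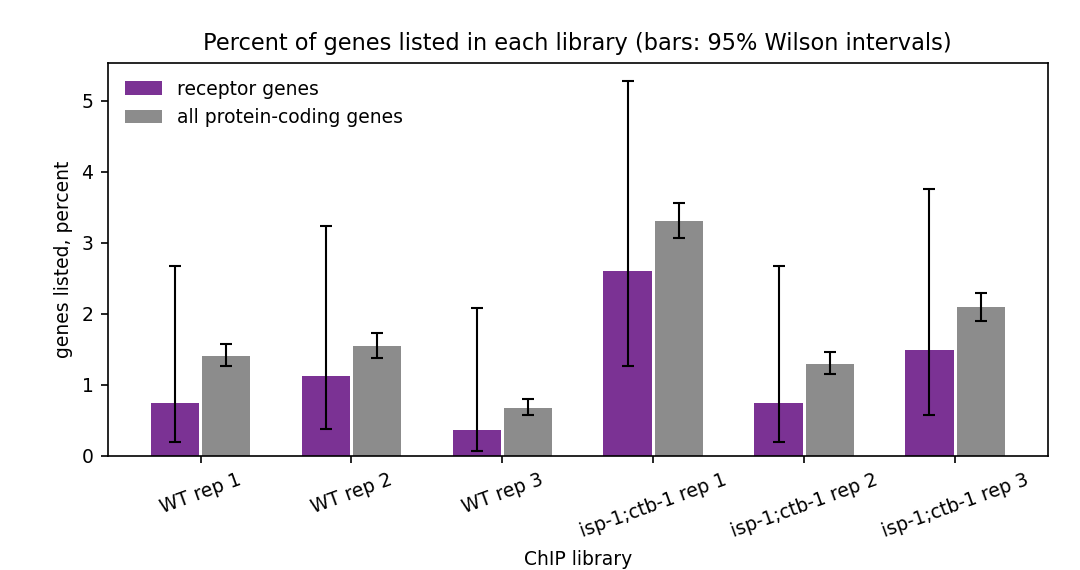
Percent of the 269 protein-coding receptor genes (purple) and of all 19983 protein-coding genes (grey) listed in each of the 6 ChIP libraries, with 95% Wilson intervals as bars. The purple column is the lower of the pair in every library, and its interval reaches above the grey column each time.

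The number of receptor genes listed was compared between the strains over libraries. WT replicates 1, 2 and 3 listed 2, 3 and 1 receptor genes, and *isp-1;ctb-1* replicates 1, 2 and 3 listed 7, 2 and 4. The groups overlapped, and the means of 2 ± 1 for WT and 4.33 ± 2.52 for *isp-1;ctb-1* (SD, n = 3 libraries each) differed by 2.33, with p = 0.3 in a two-sided exact permutation test. Since the *isp-1;ctb-1* lists held more genes in all, the receptor genes were also expressed as a share of the genes listed. This share was 0.658%, 0.906% and 0.704% for the WT libraries in turn and 1%, 0.719% and 0.901% for those of *isp-1;ctb-1*. The means of 0.756% ± 0.132 and 0.874% ± 0.143 differed by 0.118 percentage points with p = 0.3 in the same exact test. With peaks over 2000 bp upstream left out, the share was lower in *isp-1;ctb-1*, by a difference of -0.0333 (exact p = 1), and with peaks of a fold enrichment over 1.5 only, the difference was 0.2 (exact p = 0.1). The limit on fold enrichment removed no receptor peak, so it changed the share only through the number of other genes listed. The difference in genes was 1 without *isp-1;ctb-1* replicate 1 and 3.5 without replicate 2, and that in share was 0.054 and 0.195. An exact test of 3 libraries against 3 cannot give a p below 0.1. The labels do not say whether libraries came from separate cultures, and these p-values measure a spread between libraries that may be technical.

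Recurrence of the 9 receptor genes was set beside that of the 937 other listed protein-coding genes. At least 2 of 6 libraries listed 5 of the 9 (55.6%), and 498 of the 937 (53.1%). Listed in *isp-1;ctb-1* libraries only were 6 of 9 (66.7%) and 58.5% of the others, and in WT libraries only 1 of 9 (11.1%) and 15.6%. Listed in *isp-1;ctb-1* replicate 1 alone were 4 of 9 (44.4%) and 33.4%. None of the 9 was listed in all 6 libraries, as 46 of the others were (4.91%).

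Receptor genes were unevenly spread over the chromosomes, and so were the listed ones. Chromosome V held 167 of the 269 (62.1%) but 25% of all protein-coding genes, and 3 of the 167 were listed (1.8%, against 3.96% of the protein-coding genes there). On chromosome II, 3 of 15 receptor genes were listed (20%, Wilson interval 7.05% to 45.2%), namely *nhr-88*, *nhr-21* and *nhr-61*, beside 5.34% of the protein-coding genes. None of 33 on chromosome IV was listed, which allows a share of up to 10.4%, beside 6.64%. Chromosome X had 2 of 23 (8.7%, against 5.13%) and chromosome I had 1 of 23 (4.35%, against 7.16%). Off chromosome V the order of the shares was turned, with 6 of 102 receptor genes listed (5.88%) against 4.99%. Of these 6 genes, *nhr-21*, *nhr-61*, *nhr-3* and *nhr-48* were listed in *isp-1;ctb-1* replicate 1 alone. The turned order and the higher shares on chromosomes II and X therefore rested largely on that library. Without chromosome III, which had no assignments, 9 of 261 receptor genes (3.45%, Wilson interval 1.82% to 6.42%) stood beside 5.46%. If receptor genes had been listed at the protein-coding share of each chromosome, 12.4 would have been.

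**Figure D4:**
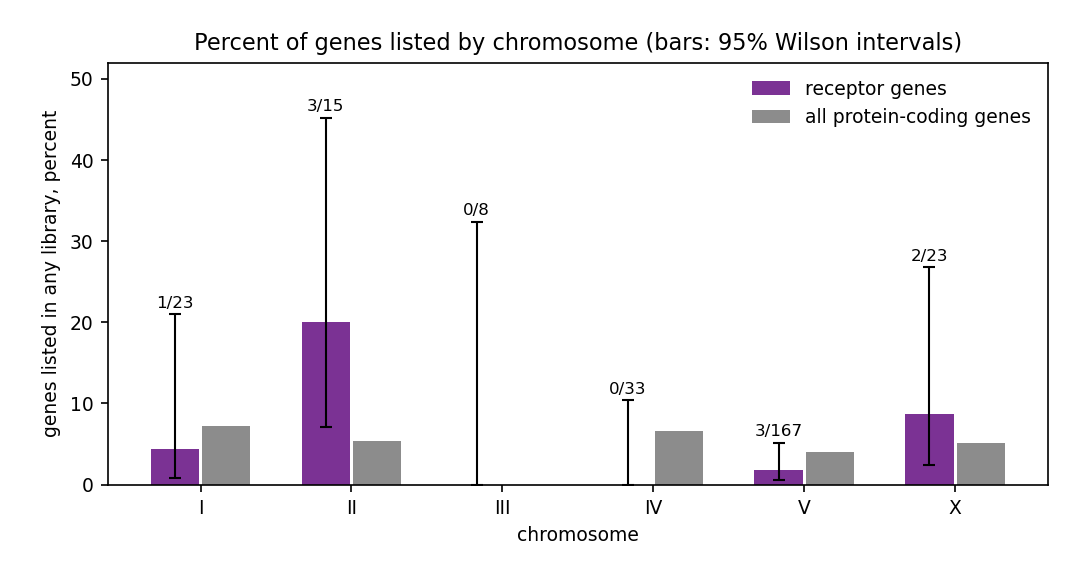
Percent of protein-coding receptor genes (purple, with 95% Wilson intervals and the count listed of those on the chromosome) and of all protein-coding genes (grey) listed in any of the 6 libraries, by chromosome. The purple column is the higher on II and X, where nhr-21, nhr-61, nhr-3 and nhr-48 came from isp-1;ctb-1 replicate 1 alone. Chromosome III has no column because no peak there had an assigned gene.

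Assigned genes depend on the authors' gene models, and positions were therefore read anew from the RefSeq table, on either side of each gene and with chromosome III included. Within 2000 bp of a peak lay 8 receptor genes (2.97%), against 6.09% of all protein-coding genes. The 8 receptor genes were *nhr-141*, *nhr-142*, *nhr-21*, *nhr-3*, *nhr-47*, *nhr-48*, *nhr-88* and, as the only one not listed, *nhr-5*. Without *isp-1;ctb-1* replicate 1 they were 5. A limit of 500 bp left 6 receptor genes (2.23%, against 3.51%), and a limit of 5000 bp gave 12 (4.46%, against 10.4%), adding *nhr-64*, *nhr-114*, *nhr-167* and *nhr-244*. From a protein-coding receptor gene to the nearest peak of any library the median distance was 102834 bp, and from the other protein-coding genes 44526 bp. The medians were 50464 and 40412 bp on chromosome I, 56084 and 44261 bp on II, 55803 and 45078 bp on IV, 127668 and 61392 bp on V, and 80477 and 49209 bp on X. On chromosome III they were 23472 and 25201 bp. The median distance was thus longer for receptor genes on each chromosome except III.

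Of 26 receptors with a textbook role, none was listed, beside 4.73% of all protein-coding genes, a share at which few of 26 would be. These 26 were chosen with earlier results of these data known, so the lack of listed genes among them is not independent of the data. Among them were *nhr-49*, which controls fat use in fasting, and *nhr-80*, which acts in fat desaturation. Others were *nhr-23* and *nhr-25*, both needed for molting, *nhr-8*, which acts in sterol and xenobiotic metabolism, and *nhr-57*, a target of the hypoxia factor HIF-1. Also without an assigned peak were *nhr-10* and *nhr-68*, which control the propionate shunt, *nhr-62*, which acts in dietary restriction, *nhr-86*, which acts in innate immunity, *nhr-85*, related to vertebrate Rev-erb, *nhr-67*, related to tailless, and *nhr-6*, related to the NR4A receptors. The remaining ones were *nhr-13*, *nhr-28*, *nhr-31*, *nhr-40*, *nhr-41*, *nhr-46*, *nhr-60*, *nhr-66*, *nhr-69*, *nhr-76*, *nhr-91*, *nhr-111* and *nhr-114*. The nearest peak lay 4819 to 596915 bp away, with a median of 57781.5 bp. The shortest of these distances was at *nhr-114*, which acts in the response to dietary tryptophan and vitamin B12, and the longest at *nhr-60*. For *nhr-49* the nearest peak was 46864 bp away and for *nhr-80* 11717 bp. The 3 textbook receptors of chromosome III, *nhr-6*, *nhr-10* and *nhr-80*, could not have been listed.

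Genes that work with these receptors were taken from a list of 27, of which 2 were listed, beside the same 4.73% of all protein-coding genes, and the count is too small to set the list apart from that share. One of them was *din-1*, a corepressor that binds the receptor DAF-12, on the minus strand of chromosome II from 11614636 to 11633609. Its upstream site, 508 to 648 bp before the gene, had a fold enrichment of 2.03 in WT replicate 1, and of 2.13 and 1.93 in *isp-1;ctb-1* replicates 1 and 3. A site over the gene, from 11619810 to 11620491, was called in the 3 *isp-1;ctb-1* libraries at 2.16-fold, 1.95-fold and 2.24-fold, and in no WT library. The other was *fmo-2*, a flavin monooxygenase induced through NHR-49, with a single peak 341 bp upstream in WT replicate 2 at 1.89-fold. Like the receptor peaks, no peak of either gene had a deposited p under 0.05. The lowest was 0.0891 for *din-1*, and that of *fmo-2* was 0.0998. None was listed of 5 further nuclear receptors, *daf-12*, *odr-7*, *unc-55*, *fax-1* and *sex-1*, or of 6 genes of dafachronic acid synthesis and sterol transport. The same held for the fatty acid desaturases *fat-5*, *fat-6* and *fat-7*, the acyl-CoA synthetase *acs-2*, the propionate shunt genes *acdh-1* and *hphd-1*, and the HIF-1 targets *egl-9*, *phy-2* and *cysl-2*. Of the genes not listed, the coactivator *cbp-1* had a peak 598 bp away and *acdh-2* one 798 bp away in the RefSeq table, and *cbp-1* is 1 of the 3 on chromosome III.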

How the data were processed

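The 6 deposited peak lists of KLF-1-YFP ChIP-seq, 3 of WT and 3 of *isp-1;ctb-1*, were analysed. The authors ran QuickNGS with BWA on Ensembl release 93, FastQC 0.10.1 for read quality and MACS2 2.0.10 for peaks, comparing every ChIP library with the input of the same replicate, unpooled. For each peak the deposited lists give a ratio, the fold enrichment over input, and the authors added a p-value where they assigned a gene. The sources used here do not say what this p tests. The table in which the authors compared the strains (means, folds and p-values) was not used. Lists were matched to samples by the strain number, the replicate and the input named in the titles.

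Rows with an *nhr-* symbol were taken from every list, at every fold enrichment and p, and each listed gene was matched to 1 gene of the RefSeq table (WBcel235). Intervals are 95% Wilson intervals. Peaks sharing at least 1 bp formed a site. The rule for named genes took every receptor gene listed in at least 2 libraries with all its values, each receptor gene of 1 library, and the 26 textbook receptors. Members, lists and rules were chosen with earlier results of these data known. Libraries were compared by exact permutation tests. Alternatives were the threshold of fold enrichment over 1.5 and p under 0.05, fold enrichment alone, a limit of 2000 bp upstream, peaks longer than 2000 bp left out, positions in place of assignments, chromosomes apart, a replicate block and each library left out in turn, and, chosen after seeing the data, chromosome III left out, strains apart and *nhr-61* left out. On simulated positions among 19971 genes, 60 of 60 planted genes were recovered. Motifs were not searched, since no genome sequence was at hand. Python 3.11.15, numpy 2.4.6, pandas 2.3.3, scipy 1.17.1 and matplotlib 3.10.9 were used.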

Additional observations from a re-analysis of the deposited data

Results flagged for a closer look

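A peak without an assigned gene lay near *nhr-5* (chromosome IV, 15400277 to 15407416) in 4 of 6 libraries, outside the assignments on which the comparisons rest. Its fold enrichment was 2.00, 2.02 and 1.83 in WT replicates 1, 2 and 3 and 1.59 in *isp-1;ctb-1* replicate 3, with ranks of 171 of 577, 143 of 665, 64 of 303 and 410 of 565. The peaks began 1916, 1915, 1920 and 1946 bp beyond the end of the gene with the higher coordinate, and carry no p. All 3 WT libraries had this peak, and of the listed receptor genes only *nhr-141* was likewise called in all 3.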

How the results depend on the processing

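At a fold enrichment over 1.5 with p under 0.05, 0 receptor genes were listed in any library, 0 in at least 2 of 3 libraries of a strain and 0 in both strains, and the tests between strains could not be run. Peaks over the gene or at most 2000 bp upstream left 3 genes in at least 2 of 3 libraries and changed the sign of the difference in share between strains to -0.0333 (exact p = 1). Asking for at least 2 of 3 libraries of each strain left 1 gene in both strains. Leaving out each library in turn gave 5 to 9 listed genes, 3 to 5 in at least 2 of 3 libraries, 1 to 2 in both strains and 5 to 8 within 2000 bp by position, each lowest value being that without *isp-1;ctb-1* replicate 1 (for 3, also replicate 3) except the 1, without WT replicate 2. The percent of receptor genes listed less that of protein-coding genes was -1.39 percentage points over all libraries, 14.7 on chromosome II, -6.64 on IV and 3.57 on X, and -1.39 to -1.11 with a library left out. The values on II and X drew largely on genes listed in *isp-1;ctb-1* replicate 1 alone. The cause of the changes above was not tested.

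Deviations of same-numbered libraries from their strain means had correlations of -0.102, 0.0488 and -0.184 over 1002 genes. These values gave no sign of pairing by replicate number, but cannot exclude that same-numbered libraries shared a culture or a preparation. With numbers as a replicate block, the differences of 2.33 genes and 0.118 percentage points had p = 0.5 in an exact sign-flip test, whose smallest p is 0.25. With a library left out in turn, the difference in genes ran from 1 (without *isp-1;ctb-1* replicate 1) to 3.5 (without *isp-1;ctb-1* replicate 2) and that in share from 0.054 to 0.195, between the same libraries, with p of 0.1 or more. By position within 2000 bp, the percent of receptor genes less that of protein-coding genes was -3.11 points. The other alternatives run kept the direction of the values given here.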
